A study of Homo sapiens with 6 samples.

Results

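Antisense long noncoding RNAs are transcribed from the strand opposite to a named gene, and 191 of them were expressed in LX-2 cells. They were chosen as the genes whose symbol ends in -AS and 1 digit and whose mean FPKM (fragments scaled to transcript length and library size) over the 6 samples was at least 0.5. The table held 943 such symbols among 33900 genes, and the other 752 lay below this limit. ZNF32-AS2, at a mean of 0.505 FPKM, was just inside the limit and SLC25A25-AS1, at 0.495 FPKM, was just outside it. The choice was by symbol, and the table does not type EMC3-AS1, SVIL-AS1 and RBM12B-AS1 as long noncoding RNA. Each antisense RNA was set beside the gene whose symbol precedes -AS, called its sense gene here.

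The study sequenced RNA from LX-2, an immortalised human hepatic stellate cell line, to ask how stellate cells respond to semaphorin 3C, a secreted protein that binds neuropilin and plexin receptors. One group was given recombinant human semaphorin 3C (rhSema3C) at 300 ng/ml for 48 h, the other received PBS for the same 48 h, and each group held 3 samples labelled as biological replicates. All samples came from 1 cell line, and the labels give no culture or day for a replicate, so the p-values measure the spread between these samples. Of 9 stellate or mesenchymal markers 8 were above 0.5 FPKM, with VIM at 935 FPKM and COL1A1 at 78.0 FPKM, while COL1A2 stood at 0.109 FPKM. The hepatocyte markers ALB and APOA1, the leukocyte markers PTPRC and CD3E and all 3 endothelial and all 3 epithelial markers were below 0.5 FPKM, although SERPINA1 reached 3.32 FPKM and CD68 80.2 FPKM.

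Antisense RNAs act in several ways. Some recruit chromatin regulators to the promoter of the gene they overlap or pair with its mRNA, some bind microRNAs or proteins far from their own locus, and for many the act of transcription, or no function at all, is what is known. In stellate cells and fibroblasts several are studied in connection with matrix production and the transition between epithelial and mesenchymal states.

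A caution on strand applies to every value. The library kit is described as one for mRNA, and the sources used here do not say whether libraries or counting kept the strand. Where an exon of an antisense RNA lies opposite an exon of another gene, reads from both cannot be told apart without strand. By the GENCODE 29 gene models, 136 of the 188 antisense RNAs with a sense gene in the table shared exon bases with it, 52 shared none, and the median share of antisense exon bases lying opposite sense exons was 6.68%. For 42 the share was at least 20%. With exons of any gene on the opposite strand, 149 of the 191 overlapped. The share is given below for many of the antisense RNAs described at length, and its part in their values was not tested. Where no share is given, a lack of overlap is not meant. The share covers exons only, and 40 of the antisense RNAs lie within the span of their sense gene. Whether reads from introns of a sense gene entered the counts of its antisense RNA was not tested. A low share, or none, therefore does not free a pair from this caution.

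The libraries held 68267808 to 89245585 counts, and the antisense RNAs took 0.145 to 0.151% of them with PBS and 0.175 to 0.178% with rhSema3C. CPM, the counts of a gene relative to a TMM-scaled library total, are used for differences between groups. Summed over all 191 antisense RNAs they came to 1580, 1519 and 1551 CPM in the PBS samples and to 1701, 1722 and 1711 CPM in the rhSema3C samples. The groups did not overlap in either measure. The mitochondrial share of counts moved with the groups, from 4.75 to 5.42% with PBS to 3.73 to 3.93% with rhSema3C, and the TMM factors from 0.958 to 0.968 to 1.03 to 1.04. Their part in the differences was not tested.

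Most antisense RNAs were scarce. Their median level was 1.02 FPKM, 147 lay under 2 FPKM and 9 reached 5 FPKM, while the median count of an antisense RNA in a sample was 279.5 and the lowest 8. The sense gene was in the table for 188, since HOXB-AS1, HOXB-AS2 and HOXB-AS4 are named after a gene cluster. The sense gene was itself below 0.5 FPKM for 23, which left 165 pairs over 164 sense genes. The median ratio of sense to antisense level was 5.43 on the FPKM scale. Among the pairs with both genes above the limit, 21 antisense RNAs had the higher FPKM.

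With rhSema3C, 52 antisense RNAs were higher and 25 were lower, and 114 did not pass the test. Differences were tested over all 14178 genes with a mean of at least 0.5 FPKM by edgeR's quasi-likelihood test with Benjamini-Hochberg adjustment, and called at an adjusted p below 0.05. Over all genes tested, percent called higher was 31.7 and percent called lower was 30.6, against 27.2% and 13.1% of the antisense RNAs. Of all genes 62.3% were called in either direction, against 40.3% of the antisense RNAs. The median log2 fold change was 0.17 over the antisense RNAs and 0.02 over all genes tested, and single antisense RNAs ranged from -2.35 to 2.23. The split between directions depended on the scaling. Scaling by library size alone gave 67 higher and 16 lower, and a fit on TPM, added after the data had been seen, gave 90 higher and 16 lower, so the higher share of the called antisense RNAs went from 67.5% to 80.7% and 84.9%. These scalings also moved the median of all genes, from 0.02 to 0.13 and 0.23, against 0.28 and 0.32 for the antisense RNAs. With RLE scaling the medians stayed near those of the main fit, at 0.01 for all genes and 0.15 for the antisense RNAs.

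Genes of similar level gave similar values. The 7207 genes between 0.5 and 5 FPKM had a median log2 fold change of 0.16 with 2456 called higher and 1163 lower, and the 182 antisense RNAs in that range had a median of 0.18 with 49 higher and 21 lower. Of these genes 50.2% were called in either direction, against 38.5% of the antisense RNAs. Within this range the antisense RNAs were scarcer, with a median level of 0.987 FPKM against 1.77 FPKM. Between 0.5 and 1 FPKM the shares were closer, at 36.6% of 1952 genes and 32.3% of 93 antisense RNAs. Other noncoding classes differed from each other. The 110 tested LINC genes, noncoding RNAs that lie between genes, had a median of 0.23 with 34 higher and 16 lower. The 28 divergent transcripts with symbols in -DT had a median of -0.14 with 8 higher and 5 lower, and the 6 intronic transcripts in -IT a median of 0.65 with 4 called, each higher. In single samples, 66 antisense RNAs were higher in every rhSema3C sample than in every PBS sample, 34.6% of them, and percent called in this way over all genes was 34.6. In the other direction it was 34 antisense RNAs, 17.8% of them, and percent called over all genes was 33.3.

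The threshold of a 2-fold change was passed by 12 antisense RNAs that rose and 3 that fell. Percent called past this threshold over all genes was 3.31 for rises and 2.06 for falls. Of the 15, 9 had means under 3 CPM in both groups, as the plot of CPM by sample shows.

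**Figure D1:**
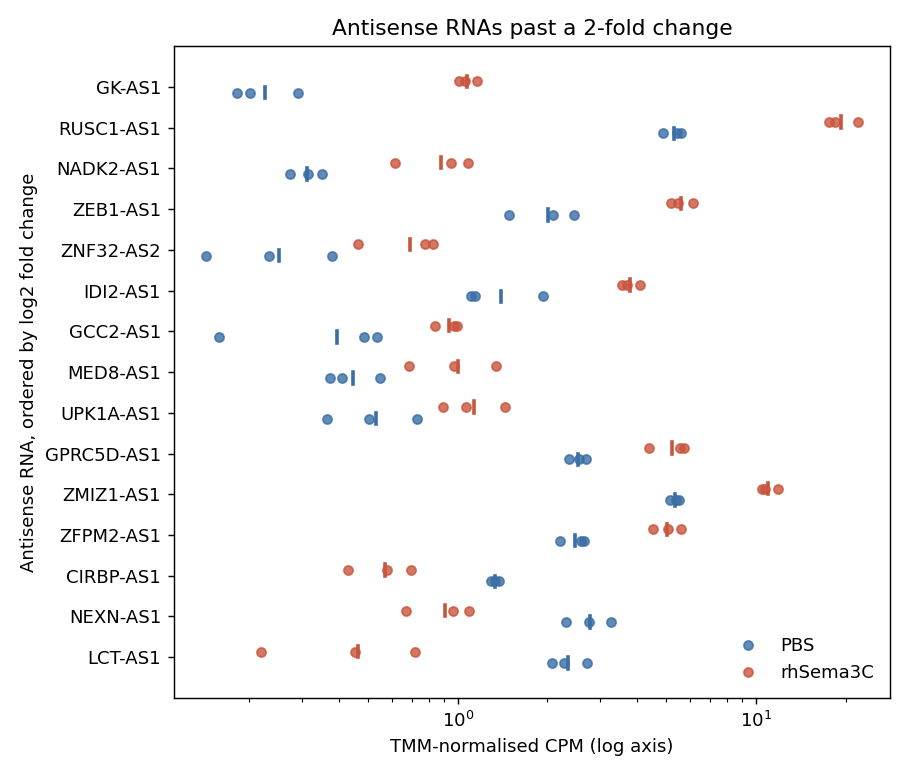
CPM (log axis) of the 15 antisense RNAs past a 2-fold change, ordered by log2 fold change, in the 3 PBS samples (blue) and the 3 rhSema3C samples (red), with the group mean as a vertical bar. The PBS and rhSema3C points are apart for all 15, by the least for GCC2-AS1, MED8-AS1, UPK1A-AS1 and ZNF32-AS2.

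GK-AS1 gave the largest rise. It lies within GK (glycerol kinase, which makes glycerol 3-phosphate) at chrX:30699998-30724174 (GRCh38, minus strand). It measured 0.292, 0.201 and 0.182 CPM in the PBS samples and 1.06, 1.16 and 1.01 CPM in the rhSema3C samples, so that each treated sample was above each control. The log2 fold change was 2.23 (SE 0.29, adjusted p 5.21e-05 in edgeR's quasi-likelihood test). GK itself went from 25.2 ± 1.37 to 49.4 ± 3.66 CPM (SD, n = 3), a log2 fold change of 0.97, and rose less than its antisense RNA. The change of the antisense to sense log2 ratio was 1.28 (SE 0.30, adjusted p 0.00932 in limma over 2100 pairs of genes on opposite strands). Of the exon bases of GK-AS1, 11.4% lie opposite exons of GK.

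RUSC1-AS1 was the most abundant of the 15 at 3.47 FPKM and lies at chr1:155316863-155324176 (GRCh38, minus strand), head to head with RUSC1, an adaptor of vesicle traffic. Its PBS samples held 5.46, 4.89 and 5.60 CPM and its rhSema3C samples 17.6, 18.4 and 22 CPM. The treated samples were all more than 3 times the controls, and the log2 fold change was 1.86 (SE 0.12, adjusted p 1.87e-07 in edgeR's quasi-likelihood test). RUSC1 moved the other way, from 46.9, 49.1 and 51.5 to 36.2, 35.3 and 34.3 CPM, a log2 fold change of -0.48 (SE 0.0600). The exons of RUSC1-AS1 overlap RUSC1 over 11.3% of their bases and opposite-strand exons of any gene over 31%. FDPS, the farnesyl diphosphate synthase of the cholesterol pathway, overlaps RUSC1-AS1 in span on the opposite strand. FDPS was at 99.2 FPKM with a log2 fold change of 1.01, and its own share of these exon bases is not given here. Whether reads of FDPS entered the counts of RUSC1-AS1 was not tested.

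IDI2-AS1 stood in a like position. It rose from 1.40 ± 0.468 to 3.78 ± 0.276 CPM (SD, n = 3), a log2 fold change of 1.44 (SE 0.24, adjusted p 3.04e-04 in edgeR's quasi-likelihood test). IDI2 was at 0.00815 FPKM and was not tested. Of the exon bases of IDI2-AS1, 57.7% lie opposite exons of any gene. IDI1, the isopentenyl diphosphate isomerase of cholesterol synthesis, overlaps IDI2-AS1 in span on the opposite strand. IDI1 was at 26.8 FPKM with a log2 fold change of 1.24, and its own share of these exon bases is not given here.

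ZEB1-AS1 lies upstream of ZEB1, a repressor of epithelial genes that drives mesenchymal transition, with overlapping 5′ ends. Its samples read 1.48, 2.45 and 2.08 CPM with PBS and 5.17, 5.48 and 6.15 CPM with rhSema3C. The lowest treated sample was above the highest control, and the log2 fold change was 1.48 (SE 0.20, adjusted p 6.38e-05 in edgeR's quasi-likelihood test). ZEB1 rose by less, from 15.5 ± 0.879 to 20.7 ± 1.18 CPM, a log2 fold change of 0.41. The ratio of antisense to sense rose by 1.09 on the log2 scale (SE 0.24, adjusted p 0.00648 in limma). Of the exon bases of ZEB1-AS1, 9.55% lie opposite ZEB1 exons.

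Another 5 of the rising antisense RNAs had a sense gene that rose too, and none of their ratios passed the test. NADK2-AS1, within the gene of the mitochondrial NAD kinase NADK2, had a log2 fold change of 1.48 against 0.73 for NADK2, with 0 shared exon bases. ZNF32-AS2 had 1.45 against 0.56 for the zinc finger gene ZNF32. GCC2-AS1 had 1.24 against 0.71 for GCC2, a golgin of the trans-Golgi. MED8-AS1 had 1.16 against 0.46 for the Mediator subunit MED8. UPK1A-AS1 had 1.09 against 0.71 for the uroplakin gene UPK1A. The share of exon bases opposite the sense gene was 35.1% in ZNF32-AS2, 32.5% in UPK1A-AS1, 19% in MED8-AS1 and 7.76% in GCC2-AS1. The adjusted p of the log2 ratio ranged over these 5 from 0.104 for NADK2-AS1 to 0.559 for UPK1A-AS1 in limma. The highest single value among these 5 was 1.44 CPM, in UPK1A-AS1, whose call was lost without rhSema3C replicate 2 (adjusted p 0.0504 in edgeR, and from 0.00612 to 0.0504 over the 6 fits that left out 1 library).

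ZMIZ1-AS1, divergent from ZMIZ1, a coactivator of the PIAS family, and sharing 0 exon bases with a gene on the other strand, measured 5.17, 5.38 and 5.53 CPM with PBS and 10.7, 11.8 and 10.5 CPM with rhSema3C. It rose by 1.04 on the log2 scale (SE 0.11, adjusted p 1.06e-05 in edgeR's quasi-likelihood test), while ZMIZ1 stood at -0.079 (SE 0.0627) and was not called. The ratio of the pair rose by 1.12 (SE 0.13, adjusted p 2.66e-04 in limma). The last 2 rises came from loci whose sense gene was below the limit of 0.5 FPKM. GPRC5D-AS1 went from 2.54 ± 0.162 to 5.22 ± 0.723 CPM with the receptor gene GPRC5D at 0.489 FPKM, just under the limit. It shares no exon bases with GPRC5D, but 12.7% lie opposite exons of any gene. ZFPM2-AS1 went from 2.48 ± 0.250 to 5.05 ± 0.543 CPM with ZFPM2, a GATA cofactor, at 0.127 FPKM.

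The 3 falls differed in what their sense genes did. LCT-AS1, inside the lactase gene LCT at chr2:135820191-135823087 (GRCh38, plus strand), held 2.72, 2.07 and 2.27 CPM with PBS and 0.452, 0.219 and 0.720 CPM with rhSema3C. The groups were apart, and the log2 fold change was -2.35 (SE 0.36, adjusted p 1.77e-04 in edgeR's quasi-likelihood test). LCT, opposite 4.24% of its exon bases, was at 0.0120 FPKM, so no pair could be tested. NEXN-AS1 fell together with NEXN, which encodes nexilin, an actin-binding protein of contractile cells. It went from 3.26, 2.76 and 2.31 to 0.673, 0.962 and 1.09 CPM, a log2 fold change of -1.61 (SE 0.25), and NEXN from 22, 20.8 and 19.1 to 8.09, 8.42 and 7.37 CPM, a log2 fold change of -1.37 (SE 0.0982). The ratio of this pair changed by -0.25 (SE 0.26, adjusted p 0.468 in limma) and its groups overlapped, with 10.8% of exon bases shared. CIRBP-AS1, inside the gene for the cold-inducible RNA-binding protein CIRBP, fell alone. It held 1.38, 1.29 and 1.34 CPM with PBS and 0.429, 0.580 and 0.696 CPM with rhSema3C, with a log2 fold change of -1.23 (SE 0.26, adjusted p 0.00154 in edgeR's quasi-likelihood test). CIRBP stood at 0.035 (SE 0.0550), and the ratio fell by 1.29 on the log2 scale (adjusted p 0.00634 in limma). Of the exon bases of CIRBP-AS1, 0.402% lie opposite CIRBP exons. Without rhSema3C replicate 1 the count of antisense RNAs past a 2-fold fall was 7 in place of 3.

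Over all 165 pairs, the antisense to sense ratio rose in 31 and fell in 22, or 32.1% in either direction. The log2 ratio in each sample does not depend on how libraries are scaled to each other. In the 1935 other pairs of tested genes with overlapping spans on opposite strands, where the scarcer gene was set over the more abundant one, percent called higher was 26.4, percent called lower was 16.5 and percent called either way was 42.8. The ratio groups did not overlap in 81 of the 165 pairs, and percent not overlapping among the other pairs was 54.1. Without rhSema3C replicate 2 the ratio fell in 13 pairs in place of 22.

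**Figure D2:**
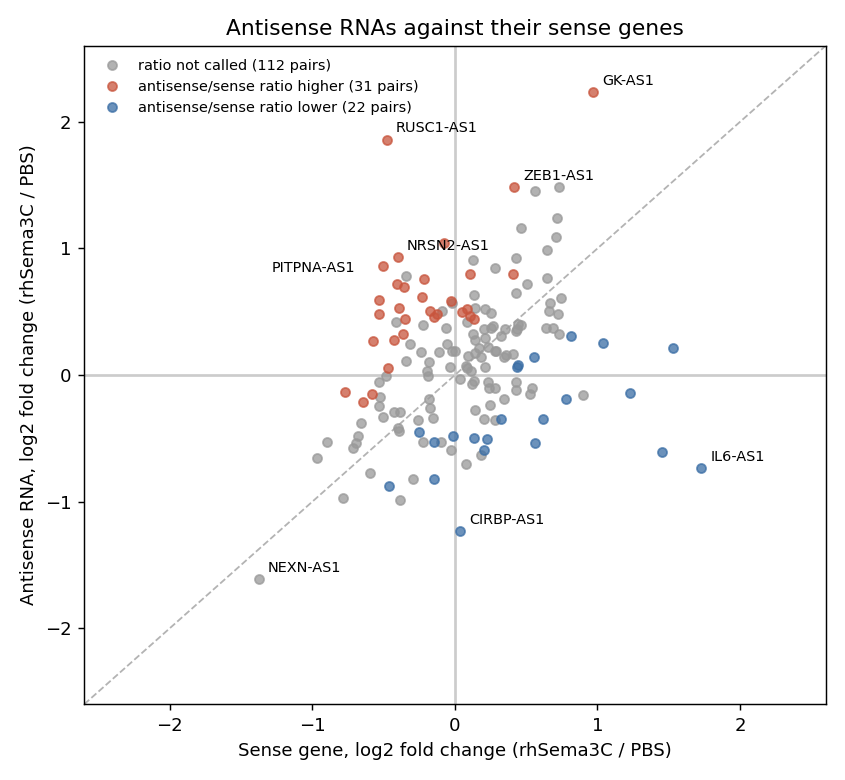
Log2 fold change (rhSema3C over PBS) of each antisense RNA on the vertical axis against that of its sense gene on the horizontal axis for the 165 pairs with both genes tested. Red and blue points are the 31 and 22 pairs whose ratio was called higher or lower, the dashed line marks equal change, and RUSC1-AS1 and IL6-AS1 lie in the quadrants of opposite change.

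Both genes were called in 48 pairs. They rose together in 21, fell together in 13 and moved in opposite directions in 14, which puts 70.8% in the same direction. Among the other opposite-strand pairs with both genes called the share was 75.2% of 735. Across the 165 pairs the log2 fold changes had a Pearson r of 0.29, and across the other pairs 0.32. These are descriptions across genes, which share the same 6 libraries. The r was 0.08 for the 43 pairs with no shared exon bases, 0.40 for the 83 pairs under 20% and 0.20 for the 39 pairs at 20% or more.

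Of the 14 opposite pairs the antisense RNA was higher and the sense gene lower in 11, and the reverse held in 3. The ratio passed its test in all 14. The 10 with the largest change of the ratio are plotted sample by sample.

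**Figure D3:**
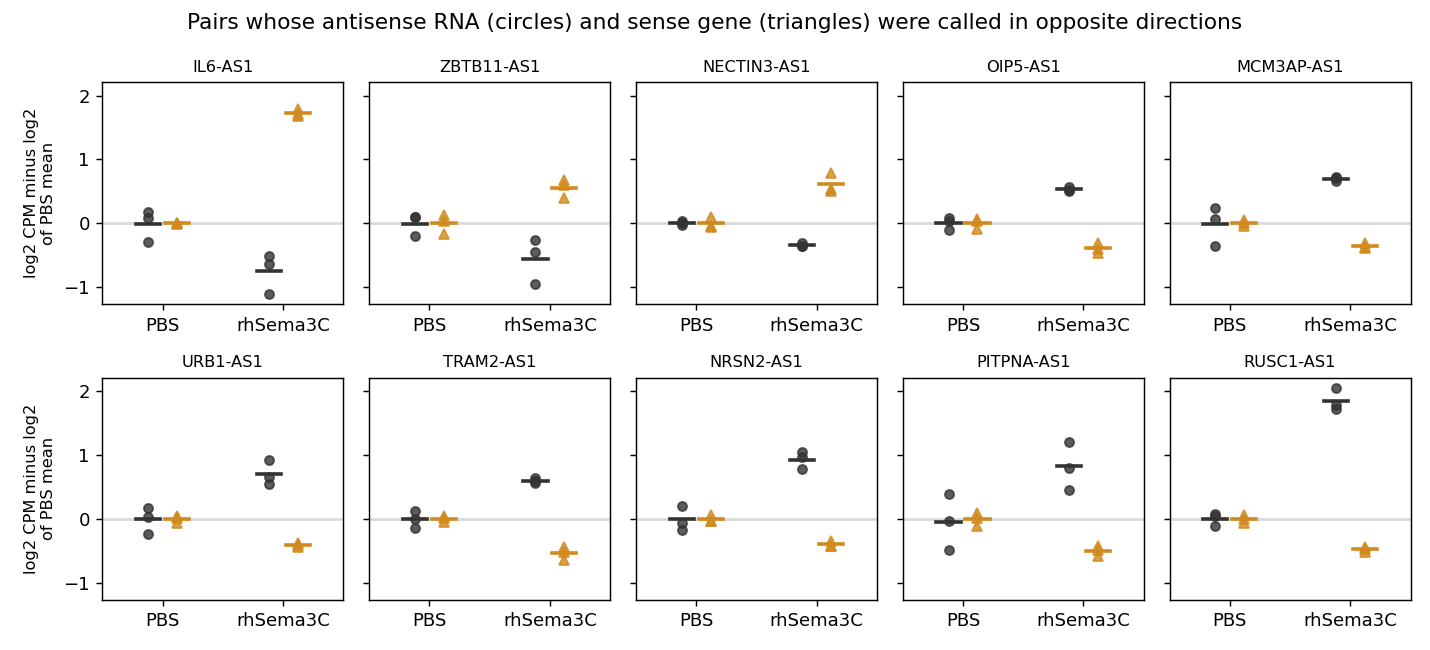
Log2 CPM of antisense RNAs (dark circles) and their sense genes (orange triangles), each relative to the log2 of its own PBS mean, by sample in the 10 pairs called in opposite directions with the largest ratio change. Horizontal bars are group means, and the circles and triangles of the rhSema3C samples lie on opposite sides of 0 in every panel.

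IL6-AS1 and the cytokine gene IL6 parted the furthest. IL6 encodes an inflammatory cytokine of activated stellate cells. IL6-AS1, at chr7:22725395-22727620 (GRCh38, minus strand), held 1.29, 1.38 and 0.988 CPM with PBS and 0.777, 0.853 and 0.564 CPM with rhSema3C. All 3 treated samples were below the lowest control, and the log2 fold change was -0.73 (SE 0.26, adjusted p 0.0300 in edgeR's quasi-likelihood test). IL6 rose from 88.3, 89 and 89 to 307, 289.7 and 286 CPM, a log2 fold change of 1.73 (SE 0.0428). The log2 ratio fell by 2.47 (SE 0.27, adjusted p 1.76e-04 in limma), and this call held without any 1 library. The fall of IL6-AS1 alone was lost when either PBS replicate 1, PBS replicate 2, rhSema3C replicate 1 or rhSema3C replicate 3 was left out, with adjusted p from 0.0229 to 0.107 in edgeR over the 6 fits. It was also lost with scaling by library size alone (adjusted p 0.0554 in edgeR), on TPM (adjusted p 0.0765 in limma) and with no filter on low values (adjusted p 0.0961 in edgeR). Of the exon bases of IL6-AS1, 31.4% lie opposite IL6 exons, where reads of IL6 would count if strand was not kept.

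The start of IL6-AS1 shows this overlap in sequence. The window below runs from 250 bases before to 50 bases after its start in RefSeq (GRCh38.p14, chr7:22727571-22727870, minus strand, written 5′ to 3′). The capitals are the 64 bases that lie in exons of IL6, on the opposite strand.
IL6-AS1: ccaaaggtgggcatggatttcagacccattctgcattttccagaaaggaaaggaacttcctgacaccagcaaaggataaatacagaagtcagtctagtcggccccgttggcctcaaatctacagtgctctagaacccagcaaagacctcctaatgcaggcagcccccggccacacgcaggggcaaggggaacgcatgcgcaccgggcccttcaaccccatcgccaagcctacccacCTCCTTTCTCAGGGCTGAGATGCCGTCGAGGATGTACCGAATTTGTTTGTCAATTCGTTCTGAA

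RUSC1-AS1, TRAM2-AS1 and URB1-AS1 share promoter bases with a sense gene that went the other way. Of the 191 antisense RNAs, 144 had a window of 300 bases in the RefSeq table, and 24 of these had more than 1. In 129 pairs both genes had a window on opposite strands, and in 34 of these the windows shared bases. Where a pair had several combinations of windows, the one sharing the most bases was used. Both genes were called in 11 of the 34, in the same direction in 8 and in opposite directions in these 3. Among all 48 antisense and sense pairs with both genes called, 14 went in opposite directions, and among the 735 other opposite-strand pairs 182. Their windows are shown with those of ZEB1-AS1, which rose with its sense gene, and LPP-AS2, which fell with it. All are from GRCh38.p14 and written 5′ to 3′ on the strand of the antisense RNA, and the capitals mark the bases that also belong to the window of the sense gene. They lie at chr1:155323796-155324095 (minus) for RUSC1-AS1, chr6:52577048-52577347 (plus) for TRAM2-AS1, chr21:32392883-32393182 (plus) for URB1-AS1, chr10:31319046-31319345 (minus) for ZEB1-AS1 and chr3:188154039-188154338 (minus) for LPP-AS2.
RUSC1-AS1: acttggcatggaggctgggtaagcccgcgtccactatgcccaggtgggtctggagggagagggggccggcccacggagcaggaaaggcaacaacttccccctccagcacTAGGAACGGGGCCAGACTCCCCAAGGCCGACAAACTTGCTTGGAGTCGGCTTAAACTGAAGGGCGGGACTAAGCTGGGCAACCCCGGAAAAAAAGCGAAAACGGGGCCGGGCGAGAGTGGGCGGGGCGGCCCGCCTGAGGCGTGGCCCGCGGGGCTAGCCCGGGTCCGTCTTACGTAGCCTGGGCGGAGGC
TRAM2-AS1: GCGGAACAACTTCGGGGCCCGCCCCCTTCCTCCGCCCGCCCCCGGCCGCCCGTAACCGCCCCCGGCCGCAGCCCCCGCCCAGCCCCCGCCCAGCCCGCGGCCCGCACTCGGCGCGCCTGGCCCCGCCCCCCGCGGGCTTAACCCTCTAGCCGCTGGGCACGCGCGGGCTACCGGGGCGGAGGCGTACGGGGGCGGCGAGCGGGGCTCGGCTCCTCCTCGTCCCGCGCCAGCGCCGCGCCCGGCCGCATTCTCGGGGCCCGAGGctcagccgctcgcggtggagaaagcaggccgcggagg
URB1-AS1: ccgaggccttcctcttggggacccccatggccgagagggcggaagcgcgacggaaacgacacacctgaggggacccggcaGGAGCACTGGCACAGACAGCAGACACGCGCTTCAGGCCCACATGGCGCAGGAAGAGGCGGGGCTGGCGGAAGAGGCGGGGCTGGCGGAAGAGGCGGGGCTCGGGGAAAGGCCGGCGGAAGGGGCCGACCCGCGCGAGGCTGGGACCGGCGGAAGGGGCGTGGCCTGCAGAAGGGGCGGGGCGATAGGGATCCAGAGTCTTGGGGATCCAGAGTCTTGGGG
ZEB1-AS1: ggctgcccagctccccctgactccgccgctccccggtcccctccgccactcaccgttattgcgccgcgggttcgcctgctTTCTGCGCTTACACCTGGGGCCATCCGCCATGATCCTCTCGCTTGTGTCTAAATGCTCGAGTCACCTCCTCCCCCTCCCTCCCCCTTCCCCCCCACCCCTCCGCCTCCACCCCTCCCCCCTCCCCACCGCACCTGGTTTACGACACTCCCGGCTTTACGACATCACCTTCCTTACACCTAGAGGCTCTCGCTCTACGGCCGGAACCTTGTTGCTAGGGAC
LPP-AS2: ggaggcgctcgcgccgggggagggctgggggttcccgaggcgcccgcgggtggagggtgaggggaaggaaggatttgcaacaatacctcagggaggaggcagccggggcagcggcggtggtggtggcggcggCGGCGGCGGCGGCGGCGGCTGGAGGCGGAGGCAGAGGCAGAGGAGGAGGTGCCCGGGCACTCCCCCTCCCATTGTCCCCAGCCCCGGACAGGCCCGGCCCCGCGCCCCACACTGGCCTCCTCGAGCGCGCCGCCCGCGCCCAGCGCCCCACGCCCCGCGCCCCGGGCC

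The shared stretches were 191 bases for RUSC1-AS1, 263 for TRAM2-AS1, 220 for URB1-AS1, 220 for ZEB1-AS1 and 168 for LPP-AS2. The TRAM2-AS1 window was 82% G and C and held 10 matches to the GC box, spelled GGGCGG and searched on both strands with overlapping matches counted. The RUSC1-AS1 window held 4 matches, that of URB1-AS1 2, that of LPP-AS2 1 and that of ZEB1-AS1 0. Over all RefSeq windows 44.9% held a match, and over the 173 windows of the antisense RNAs 51.4%. CCAAT was in 30.6% of the antisense windows and 34.6% of all 34943, and TATAAA in 6.36% and 11.6%. None of the 5 windows held CCAAT or TATAAA on either strand. These are letter matches only. The median G and C content was 63.3% in the antisense windows and 58.7% in all windows.

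TRAM2 and TRAM2-AS1 separated in every sample. TRAM2, an endoplasmic reticulum protein used in making type I collagen, went from 335, 351 and 359 to 257, 223 and 243 CPM, and TRAM2-AS1 from 7.78, 7.16 and 6.51 to 11.1, 10.5 and 10.8 CPM. The sense gene fell by 0.53 and the antisense RNA rose by 0.59 on the log2 scale, and the ratio rose by 1.13 (SE 0.12, adjusted p 1.61e-04 in limma). The pair shares 0 exon bases.

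URB1-AS1 went from 2.85, 3.44 and 3.80 to 4.92, 5.28 and 6.41 CPM, while URB1, a factor of large ribosomal subunit assembly, went from 81.8, 87.9 and 86 to 65.6, 62.8 and 64.4 CPM. No sample of one group reached the range of the other in either gene. The ratio rose by 1.12 (SE 0.17, adjusted p 8.79e-04 in limma), again with 0 shared exon bases. In FPKM the 2 genes were close, at 5.25 for the antisense RNA and 6.32 for URB1.

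NRSN2-AS1, head to head with the vesicle membrane gene NRSN2 and also without shared exon bases, went from 3.42 ± 0.466 to 6.52 ± 0.601 CPM (SD, n = 3) while NRSN2 went from 140.5 ± 5.29 to 107 ± 3.00 CPM. The ratio rose by 1.33 on the log2 scale (SE 0.17, adjusted p 3.85e-04 in limma). MCM3AP-AS1 rose by 0.69 and its sense gene MCM3AP, a scaffold of mRNA export, fell by 0.36, with 18.8% of exon bases shared. PITPNA-AS1 rose by 0.86 and the phosphatidylinositol transfer protein gene PITPNA fell by 0.50, but the rise was lost without PBS replicate 1, PBS replicate 2 or rhSema3C replicate 2 (adjusted p from 0.0141 to 0.112 over the 6 fits in edgeR). This pair shares 69.9% of the antisense exon bases, the most among the 10.

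OIP5-AS1, also known as cyrano and known for binding a microRNA, was the antisense RNA with the largest gain in CPM. Its samples held 73.6, 65.1 and 71.3 CPM with PBS and 99.5, 104 and 100.02 CPM with rhSema3C. The difference of the means was 31.1 CPM and the log2 fold change 0.53 (SE 0.0521, adjusted p 5.47e-06 in edgeR's quasi-likelihood test). OIP5, which helps to load centromeric histone, fell from 15.8 ± 0.908 to 12 ± 0.683 CPM, a log2 fold change of -0.39. The 2 genes overlap tail to tail over 3.71% of the antisense exon bases, and the log2 ratio rose by 0.92 (SE 0.0895, adjusted p 9.77e-05 in limma).

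The reverse direction was seen in NECTIN3-AS1 and ZBTB11-AS1 beside IL6-AS1. NECTIN3-AS1 was abundant, at 22 FPKM against 2.22 FPKM for NECTIN3, a cell adhesion receptor. It went from 84.4, 82.8 and 81.3 to 64.5, 66.5 and 64.3 CPM while NECTIN3 went from 13.5, 13.3 and 14.8 to 19.7, 23.8 and 20.1 CPM. Neither gene's groups overlapped, and with 0 shared exon bases the log2 ratio changed by -0.96 (SE 0.10, adjusted p 1.30e-04 in limma). ZBTB11-AS1 fell by 0.53 against a rise of 0.56 of the zinc finger gene ZBTB11, with 32.5% of exon bases shared. Its fall was lost without PBS replicate 2, PBS replicate 3, rhSema3C replicate 2 or rhSema3C replicate 3 (adjusted p from 0.0186 to 0.135 over the 6 fits in edgeR), while the ratio passed in each. Library size alone, the limma fits on FPKM and TPM and the fit with no filter also ended this call. The other 4 of the 14 opposite pairs, DHRS4-AS1, HMGA2-AS1, PPP3CB-AS1 and SLC9A3-AS1, had the antisense RNA higher, and the last 2 are named here after their values were seen.

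Directions were also counted by the position of the antisense RNA relative to its sense gene. The 27 divergent antisense RNAs have a span, in the deposited table, that runs away from the sense gene without overlapping it. By the GENCODE 29 exons some still share bases with the sense gene, up to 38.2% of the antisense exon bases, with a class median of 0%. The strand caution therefore applies to this class too. Of the 27, 10 were higher and 0 were lower in edgeR's quasi-likelihood test, with a median log2 fold change of 0.31. Over all genes tested, percent called higher was 31.7 and percent called lower was 30.6. The median level was 1.07 FPKM in the divergent class and 4.84 FPKM over all genes tested. Of the 7207 genes between 0.5 and 5 FPKM, 2456 were called higher and 1163 lower. At an unadjusted p below 0.05 the divergent class had 10 higher and 2 lower, DESeq2 gave 10 and 0, and limma on log2(FPKM + 1) 12 and 0. The count of rises was 16 on TPM and 6 with no filter on low values, with 0 lower in both. Without rhSema3C replicate 2 it was 8 higher and 2 lower. The 37 that overlap tail to tail had 14 higher and 3 lower with a median of 0.28, and the 40 within the sense gene 11 higher and 6 lower with a median of 0.13. The 72 that overlap head to head had 15 higher and 14 lower with a median of 0.0048. This split held with DESeq2 (16 and 15), RLE scaling (15 and 14) and a replicate block (15 and 14), but not in every fit. It was 21 and 8 with library size alone, 18 and 10 in limma on log2(FPKM + 1), 29 and 8 on TPM, and 15 and 9 without PBS replicate 2. The 11 that span the sense gene had 2 higher and 1 lower. The difference between these classes was not tested.

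**Figure D4:**
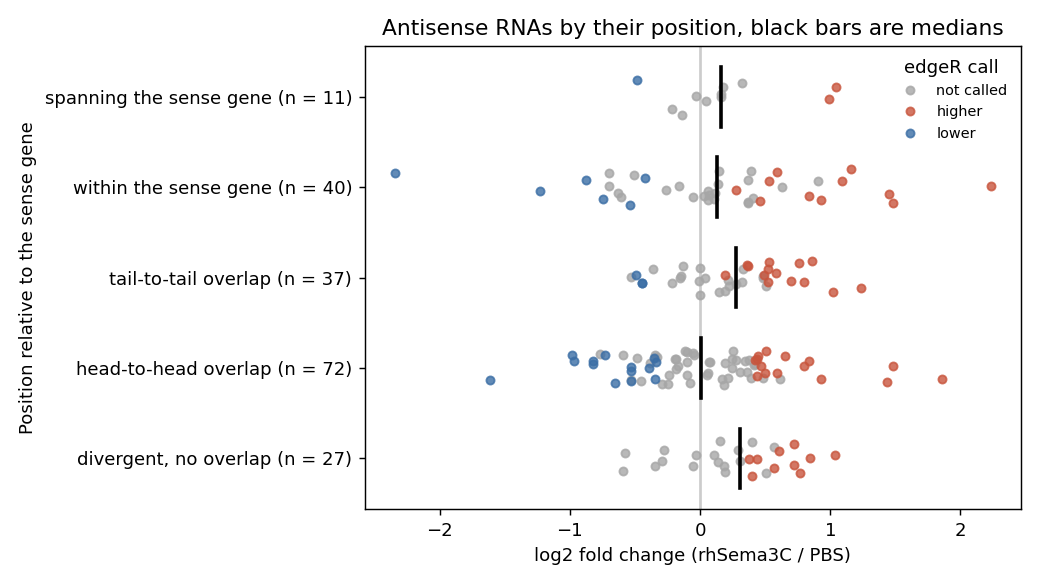
Log2 fold change (rhSema3C over PBS, horizontal axis) of 187 antisense RNAs, 1 point each, in 5 classes of position relative to the sense gene, coloured by the edgeR call, with the class median as a black bar. The medians run from 0.0048 for head-to-head overlap to 0.31 for divergent antisense RNAs without overlap of spans, and no divergent point is coloured as lower.

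Among the pairs, the head-to-head class held 8 of the 14 opposite movements. In it 19 pairs had both genes called, of which 3 rose together, 8 fell together and 8 went in opposite directions. In the divergent class 7 pairs had both genes called, 6 rising together and 1 opposite. In the class within the sense gene it was 11, with 6 rising together, 3 falling together and 2 opposite, and in the tail-to-tail class 11, with 6, 2 and 3.

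Of the 10 most abundant antisense RNAs 5 fell, 3 rose and 2 were not called. Of the 6971 genes of all kinds at 5 FPKM or more, 3176 were called lower and 2034 higher, which is 74.7% in either direction. FGD5-AS1, the highest at 38.4 FPKM, held 211, 199 and 203 CPM with PBS and 209, 202 and 201 CPM with rhSema3C, and the groups overlapped. Its log2 fold change was -0.0038 (SE 0.0407), and its sense gene FGD5, an exchange factor for CDC42, stood at -0.19. MIF-AS1 came next at 25.8 FPKM and fell from 45.4 ± 2.25 to 33.3 ± 0.385 CPM (SD, n = 3), a log2 fold change of -0.45 (SE 0.0608). Its sense gene MIF, a cytokine, fell by 0.25, and 46.5% of the antisense exon bases lie opposite MIF exons.

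AGAP2-AS1 held 29.6, 31 and 28.4 CPM with PBS and 16.4, 15.4 and 16.9 CPM with rhSema3C, the strongest fall among the 10 most abundant. The groups were far apart, and the log2 fold change was -0.87 (SE 0.0755, adjusted p 2.07e-06 in edgeR's quasi-likelihood test). Its level of 14.7 FPKM was far above the 0.830 FPKM of AGAP2, a GTPase-activating protein of endosomes, although 57.7% of its exon bases are shared. LBX2-AS1 fell by 0.53 at 8.56 FPKM, with 31.2% of its exon bases opposite the homeobox gene LBX2, which stood at -0.15, and their ratio changed by -0.39 (adjusted p 0.0142 in limma). PTOV1-AS2 fell by 0.42 at 4.94 FPKM beside a fall of 0.40 in PTOV1, which was at 14 FPKM and lies opposite 42.2% of its exon bases, and their ratio changed by -0.02 (adjusted p 0.903 in limma). HECW2-AS1, inside the ubiquitin ligase gene HECW2, was not called at 0.14 (SE 0.13).

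THAP9-AS1 rose from 26.7 ± 2.0 to 47.6 ± 2.95 CPM (SD, n = 3), a log2 fold change of 0.84 (SE 0.0751, adjusted p 2.78e-06 in edgeR's quasi-likelihood test). It shares 11% of its exon bases with genes on its own strand. SEC31A, a coat protein of vesicles leaving the endoplasmic reticulum, overlaps THAP9-AS1 in span on that strand and had a log2 fold change of 0.50. PAX8-AS1 had the third largest gain in CPM, from 101 ± 3.03 to 116 ± 2.83 CPM, and a log2 fold change of 0.19.

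The antisense RNAs were also grouped by what their sense genes do. Of 10 with a matrix, adhesion or cytoskeleton gene as sense gene, 2 were higher and 1 lower with a median log2 fold change of 0.24. The shares called in this list and the next 3 were 30%, 40%, 55% and 47.1%, against 62.3% of all genes tested and 50.2% of those between 0.5 and 5 FPKM. EPB41L4A-AS1 rose by 0.83 (SE 0.10) although EPB41L4A was at 0.00625 FPKM. NECTIN3-AS1 was the one that fell. VIM-AS1, opposite the intermediate filament gene VIM, had 0.42 (SE 0.42) and was not called, while VIM fell by 0.41, with 32.2% of exon bases shared. PXN-AS1 was not called at -0.13 (SE 0.15) while paxillin, PXN, fell by 0.77, and the ratio rose by 0.63 (adjusted p 0.0135 in limma), with 38.6% shared. LOXL1-AS1 was likewise not called at 0.06 (SE 0.10) with LOXL1, which crosslinks elastin, at -0.47, and the ratio rose by 0.52 (adjusted p 0.0152 in limma). FLNC-AS1, LAMC1-AS1, CDC42-AS1 and FGD5-AS1 were not called.

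Of 10 with a cytokine, growth factor or kinase signalling gene, 3 were higher and 1, IL6-AS1, was lower, with a median of 0.23. MAPKAPK5-AS1 rose from 11.1 ± 0.121 to 19.3 ± 1.33 CPM (SD, n = 3), a log2 fold change of 0.80 (SE 0.0885), with the kinase gene MAPKAPK5 at 0.10 and not called. Of the exon bases of MAPKAPK5-AS1, 34.6% lie opposite MAPKAPK5 exons. TRAF3IP2-AS1 rose by 0.58 (SE 0.14) and MAGI2-AS3 by 0.44 (SE 0.0801). SEMA3F-AS1, opposite a gene of the semaphorin family to which the treatment belongs, went from 1.89 ± 0.516 to 1.25 ± 0.258 CPM with overlapping groups and was not called, with a log2 fold change of -0.59 (SE 0.27, adjusted p 0.0730 in edgeR's quasi-likelihood test). WNT5A-AS1, RASSF8-AS1, ARRDC1-AS1, FRMD6-AS1 and TNFRSF10A-AS1 were not called, at log2 fold changes from -0.07 to 0.37.

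Transcription factor and chromatin genes were the sense genes of 20, of which 8 were higher and 3 lower with a median of 0.20. Beside ZEB1-AS1, ZNF32-AS2 and ZMIZ1-AS1, the rises were IRF1-AS1 at 0.80, NR2F1-AS1 at 0.47, HMGA2-AS1 at 0.46, FOXD2-AS1 at 0.44 and PAX8-AS1. The falls were GATA2-AS1 at -0.53, ZNF213-AS1 at -0.48 and ZNF674-AS1 at -0.39. The calls of 3 of these did not hold without single libraries, by adjusted p in edgeR. FOXD2-AS1 lost it without PBS replicate 2, rhSema3C replicate 1 or rhSema3C replicate 3 (up to 0.0773). HMGA2-AS1 lost it when any library but PBS replicate 1 was left out (up to 0.192), and ZNF674-AS1 when any but rhSema3C replicate 3 was (up to 0.122). All 3 also lost it with no filter on low values. So did HMGA2-AS1 with RLE scaling, the limma fits on FPKM and a replicate block, and ZNF674-AS1 with library size alone, the limma fits on FPKM and TPM and a replicate block. KMT2E-AS1 was not called at -0.19 (SE 0.24) while KMT2E, a chromatin reader, rose from 29, 30.4 and 33.7 to 52.7, 52.9 and 54.2 CPM, and the ratio changed by -0.97 (adjusted p 0.0155 in limma). SREBF2-AS1 had -0.35 (SE 0.20) and was not called, while SREBF2, a master regulator of sterol synthesis, rose by 0.32, and their ratio changed by -0.67 (adjusted p 0.0177 in limma). HIF1A-AS3 was not called at 0.33 (SE 0.18) beside a rise of 0.73 in HIF1A, the oxygen-sensing factor.

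The last group, of 17, was written as lipid, amino acid, mitochondrial and stress metabolism genes, and had 5 higher and 3 lower with a median of 0.27. The rises were IDI2-AS1, KIF9-AS1 at 0.76, DHRS4-AS1 at 0.44, NNT-AS1 at 0.44 and SBF2-AS1 at 0.37. Not all of these sense genes are metabolic, as KIF9 encodes a kinesin and SBF2 a myotubularin-related protein. The falls were LPP-AS2 at -0.99, ATP6V0E2-AS1 at -0.65 and PTOV1-AS2, where LPP is a protein of focal adhesions and ATP6V0E2 a subunit of the vacuolar proton pump. The call of SBF2-AS1 was lost without any 1 of the 6 libraries (adjusted p from 0.0563 to 0.127 in edgeR), that of ATP6V0E2-AS1 without PBS replicate 1, PBS replicate 2, rhSema3C replicate 1 or rhSema3C replicate 2 (up to 0.117), and that of PTOV1-AS2 without rhSema3C replicate 2 (0.0527). Scaling by library size alone also ended the calls of ATP6V0E2-AS1 and PTOV1-AS2. The limma fits on FPKM and TPM and the fit with no filter ended that of ATP6V0E2-AS1 too. RLE scaling, DESeq2, no filter and a replicate block each ended that of SBF2-AS1. STARD4-AS1 was not called at 0.25 (SE 0.20) while STARD4, a cholesterol carrier, rose from 100.1 ± 4.96 to 205 ± 13.9 CPM, and the ratio changed by -0.81 (SE 0.18, adjusted p 0.00669 in limma). STARD7-AS1 showed the mirror image, at 0.27 (SE 0.12) and not called beside a fall of 0.58 in the lipid transfer gene STARD7, with the ratio higher by 0.85 (SE 0.12, adjusted p 6.76e-04 in limma). MRPL20-AS1 was not called at -0.21 (SE 0.11) beside a fall of 0.65 in the mitochondrial ribosomal gene MRPL20, and SLC16A1-AS1 not at 0.31 (SE 0.15) beside a rise of 0.81 in the lactate transporter SLC16A1.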

How the data were processed

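For the 3 PBS and 3 rhSema3C samples the authors deposited 1 table that gives each gene a raw count, as a whole number, and an FPKM value. The methods of the study name the Cufflinks package and cuffmerge for differential expression. Alignment and counting software, strandedness and annotation are not given in the sources used here, and no per-sample column was left unused (0). Samples were grouped by their labels. Antisense RNAs, their sense genes, the gene lists and the comparisons were chosen with earlier results of these data known, so no list is independent evidence.

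Genes with a mean of at least 0.5 FPKM (14178) were fitted on the counts with edgeR 4.0.16 (quasi-likelihood, TMM factors, Benjamini-Hochberg) in R 4.3.3. SE was taken as the log2 fold change over the square root of F. Log2 ratios of antisense to sense counts (0.5 added) were fitted with limma 3.58.1 over 2100 opposite-strand pairs. Both steps were tested on simulated data. Overlaps used the coordinates of the table on GRCh38 and GENCODE 29 exons matched by gene identifier (all 191 antisense RNAs), and sequences came from RefSeq. Genes named in the text were those past a 2-fold change, the 10 highest in FPKM, those in the lists by sense gene, the 10 pairs with opposite calls and the largest ratio change, and those at the FPKM limit. A member of the lists by sense gene is counted but not reported here by name. DESeq2 1.42.0, limma on log2 FPKM, other scalings and filters, a replicate block and leaving out each library were alternatives. Counts are of reads without molecular identifiers.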

Additional observations from a re-analysis of the deposited data

How the results depend on the processing

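Library totals of 68267808 to 89245585 counts limit precision for the scarcest antisense RNAs, with a lowest count of 8. Against 52 antisense RNAs higher and 25 lower in edgeR, 12 past a 2-fold rise and 3 past a 2-fold fall, DESeq2 gave 52, 26, 12 and 3. Scaling by library size alone gave 16 lower. Limma on log2(FPKM + 1) gave 2 past a 2-fold rise and 0 past a 2-fold fall, where the added 1 shrinks the fold of scarce genes. The fit on log2(TPM + 1), added after seeing the data, gave 90 higher, 16 lower and 1 past a 2-fold fall. With no filter, which takes in all 943 symbols, 30 passed a 2-fold rise and 10 a 2-fold fall. A limit of 1 FPKM, which leaves fewer antisense RNAs, gave 29 higher, 6 past a 2-fold rise and 0 past a 2-fold fall, and in pairs with both genes at 1 FPKM the ratio fell in 11. A limit of 5 FPKM, which leaves 9, gave 4 higher, 4 lower, 0 and 0. Leaving out each library gave 46 to 51 higher, 19 to 25 lower, 9 to 16 past a 2-fold rise, 4 to 7 past a 2-fold fall (7 without rhSema3C replicate 1), a higher ratio in 24 to 28 pairs and a lower one in 13 to 22 (13 without rhSema3C replicate 2).

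Samples with the same replicate number did not deviate together (correlations of 0.0139, 0.076 and -0.0257), so the numbers were not read as pairs, and the replicate block gave 51 higher, 24 lower, 12 and 3, with the ratio higher in 27 pairs and lower in 19. Of 80 named antisense RNAs 48 were called, none of these reversed, and 36 were called under every alternative run for them. The other 12 lost the call under some. GCC2-AS1 lost it with no filter alone, and ZNF213-AS1 under the 3 limma fits on FPKM and TPM. Of the uncalled antisense RNAs, 14 changed sign under some alternative, and the cause was not tested. Not all of these were near 0 in the main fit. VIM-AS1 stood there at 0.42, TNFRSF10A-AS1 at 0.28, SMARCA5-AS1 at -0.24 and ZNF337-AS1 at 0.21. FGD5-AS1 stood at 0.11 with library size alone, 0.097 and 0.099 with 1 and 0.1 added to FPKM, 0.22 on TPM, and 0.013 and 0.10 with limits of 1 and 5 FPKM. NR2F2-AS1 was at 0.053, 0.012, 0.020 and 0.10 with library size, 1 added, 0.1 added and TPM, and RASSF8-AS1 at 0.035, 0.012, 0.026 and 0.11. On TPM, KMT2E-AS1 was at 0.036, MRPL20-AS1 at 0.0069, NFYC-AS1 at 0.046, PXN-AS1 at 0.075 and SMARCA5-AS1 at 0.063. Leaving out each library in turn, the log2 fold change ran from -0.025 to 0.019 for FGD5-AS1, -0.15 to 0.22 for ASH1L-AS1, -0.070 to 0.20 for FRMD6-AS1, -0.018 to 0.12 for LOXL1-AS1, -0.39 to 0.14 for NFYC-AS1, -0.21 to 0.073 for NR2F2-AS1, -0.14 to 0.017 for RASSF8-AS1, -0.47 to 0.23 for SMARCA5-AS1, -0.11 to 0.44 for TNFRSF10A-AS1, -0.16 to 0.78 for VIM-AS1 and -0.068 to 0.54 for ZNF337-AS1.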

Other observations

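Antisense RNAs whose symbol ends in -AS without a digit were left out by the rule, and 7 of them were above 0.5 FPKM. Of these 5 were lower with rhSema3C in edgeR's quasi-likelihood test with Benjamini-Hochberg adjustment, where percent called lower over all genes tested was 30.6. TPM1-AS, opposite the tropomyosin gene TPM1, went from 8.23, 6.88 and 6.69 CPM with PBS to 3.49, 2.91 and 4.21 CPM with rhSema3C, a log2 fold change of -1.04 (SE 0.17, adjusted p 2.24e-04 in edgeR). PINK1-AS, opposite the mitochondrial quality control kinase PINK1, was the most abundant at 7.68 FPKM and fell by 0.49 on the log2 scale. WT1-AS fell by 0.71, HOXA11-AS by 0.71 and HOXC13-AS by 0.79. BACE1-AS at 0.22 and CTBP1-AS at -0.0019 were not called. These 7 were named after their values were seen.

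Among the 752 antisense RNAs with a digit that lay below the limit, the median level was 0.0502 FPKM. In the fit over all genes 27 of them were called higher and 9 lower. The shares called over all genes in that fit are not given here, so these counts are not read as a trait of scarce antisense RNAs. The median log2 fold change of all genes was 0.075 in that fit, against 0.024 in the main fit. No count was seen in any PBS sample for 119 and in any rhSema3C sample for 67. Of the 752, 80 held 3 counts or fewer in all samples. PBS replicates 2 and 3 were the smallest libraries, at 73072602 and 68267808 counts. The matching numbers over all scarce genes are not given here, and the part of depth in this difference was not tested.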
